A study of Mus musculus with 28 samples.

Results

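Promoter contacts of C10 cells were compared between 0h and 1h of C/EBPα induction. Each contact was a pair of HindIII fragments in the list of significant Promoter Capture Hi-C interactions of that time point, and each unordered pair was counted once. The 0h list held 138769 pairs and the 1h list 137836, and their union held 196642 of the 273644 pairs in the lists of all 4 time points. A pair was called kept when it was in both lists, gained when it was in the 1h list alone, and lost when it was in the 0h list alone.

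C10 is a clonal mouse Pre-B cell line that carries a fusion of rat C/EBPα with the hormone-binding domain of the estrogen receptor (C/EBPαER), which estradiol brings from the cytoplasm into the nucleus. All groups carried the fusion. The 0h group was uninduced and the 1h group had received 100 nM β-estradiol together with 10 nM IL-3 and with CSF-1 for 1h, so the parts of C/EBPαER, estradiol and the cytokines cannot be told apart. IL-3 and CSF-1 are cytokines of myeloid cells. The contact list of each time point came from 2 replicates that had been merged, so contacts have no replicate error, and RNA-seq had 3 biological replicates at 0h and 3 at 1h. All results refer to this 1 line and to a rat transgene.

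Promoter Capture Hi-C crosslinks chromatin, cuts it with HindIII, joins ends that lie together in the nucleus, and enriches the joined molecules with RNA baits against fragments that carry a promoter. The other end of a pair can be an enhancer, a boundary element or another promoter. C/EBPα is a basic leucine zipper factor that drives myeloid differentiation and, when forced into B-lineage cells, represses B-cell genes. Chromatin contacts are known to be built by loop extrusion, in which cohesin is halted at CTCF sites, and by contacts between active elements.

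The labelled cell type was checked first. The summed level of 7 Pre-B markers (Pax5, Ebf1, Cd79a, Cd79b, Vpreb1, Vpreb3 and Igll1) lay between 305 and 330 TPM at 0h and between 136 and 146 TPM at 1h. TPM (the standard RNA-seq level per transcript length, as a part of the library's total) are given after division by a size factor per library. The sum of 6 macrophage markers (Csf1r, Fcgr1, Itgam, Cd14, Mmp12 and Lyz2) lay between 1.77 and 2.31 TPM at 0h and between 3.24 and 4.17 TPM at 1h. Of 10 markers of T, erythroid, fibroblast and epithelial cells, none reached a mean of 0.1 TPM, and 7 were at 0 in all 6 libraries. Pre-B markers thus far exceeded macrophage markers in both groups. The row of Cebpa, which encodes C/EBPα, listed between 20.02 and 29.2 TPM at 0h and between 23.2 and 29.99 TPM at 1h. In these values the rat fusion and the mouse gene cannot be told apart. From species-specific sequence variants, the study reported that the mouse gene was not expressed at any time. It also reported that the transgene rose at 1h. The values given here were divided by size factors that were larger at 1h than at 0h.

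Sequences of contacted fragments are shown first, because C/EBP factors bind a short palindrome. Among other ends that were not baits, the full letters TTGCGCAA (a palindrome, so 1 search covers both strands) were found in 82 of the 17907 fragments that took part in gained pairs and in no kept or lost pair. The 3 ends shown here were among them, and were chosen after values were seen because their baits carry genes that were called higher at 1h. All are read from the + strand of GRCm38.p6 (RefSeq), lie between genes, and have the C/EBP letters in capitals. The end of Ccl2, which encodes a monocyte-attracting chemokine, is at chr11:82171908-82171967, that of Ccl3, another inflammatory chemokine, at chr11:83717139-83717198, and that of Socs3, a feedback inhibitor of cytokine receptors, at chr11:117916096-117916155.
Ccl2 gained end: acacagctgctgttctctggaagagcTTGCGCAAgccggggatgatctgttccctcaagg
Ccl3 gained end: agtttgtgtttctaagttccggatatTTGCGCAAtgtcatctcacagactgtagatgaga
Socs3 gained end: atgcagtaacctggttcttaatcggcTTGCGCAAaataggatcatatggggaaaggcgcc

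A second set shows ends of 4 genes of the Pre-B and macrophage lists that are described below, chosen after values were seen, with the looser letters TTGCNNAA on either strand in capitals. Pax5, the factor that commits cells to the B lineage, lost a pair with chr4:44894527-44894586, in an intron of Zcchc7. Il7r, the receptor for the cytokine that Pre-B cells depend on, lost a pair with chr15:10327373-10327432, in an intron of Prlr and Gm21973. Ikzf1, which encodes the lymphoid zinc finger factor Ikaros, gained a pair inside its own introns at chr11:11695819-11695878, and Mmp8, a neutrophil collagenase, gained a pair inside its own intron at chr9:7562257-7562316. The windows were read from the + strand and centred on the first match in the fragment. Such a match is common, since 63.7% of all 81461 other ends held one. The share was 62.5% of fragments in gained pairs only and 64.2% of those in lost pairs only.
Pax5 lost end: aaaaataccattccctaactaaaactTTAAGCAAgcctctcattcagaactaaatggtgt
Il7r lost end: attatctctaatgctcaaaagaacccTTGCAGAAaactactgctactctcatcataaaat
Ikzf1 gained end: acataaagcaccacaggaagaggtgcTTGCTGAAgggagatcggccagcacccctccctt
Mmp8 gained end: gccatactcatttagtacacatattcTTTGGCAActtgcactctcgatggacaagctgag

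A promoter can hold the letters itself. The full letters were found in the promoters (250 bases before to 50 after the start) of 4 genes that were called higher and have a bait, of 258 with a promoter entry, and in 0 of 298 called lower. They were found in 0.185% of all 27025 promoters, and in 0.239%, 0.428% and 0.324% of those of tested genes on gaining, losing and other baits (classes of promoter fragments defined below). The 4 genes were Ptgs2 (an inducible prostaglandin synthase), Dck (a nucleoside kinase), Dclre1c (the Artemis nuclease of V(D)J recombination) and Smad6 (an inhibitory Smad, whose call was lost without 0h replicate 1, 0h replicate 2, 0h replicate 3 or 1h replicate 3, and with a pseudocount of 1). The Ptgs2 window is at chr1:150099936-150099995, on the + strand and in an exon of the antisense gene Ptgs2os. The Smad6 window is at chr9:64022065-64022124 on the - strand, between genes.
Ptgs2 promoter: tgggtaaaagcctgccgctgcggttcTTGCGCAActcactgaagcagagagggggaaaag
Smad6 promoter: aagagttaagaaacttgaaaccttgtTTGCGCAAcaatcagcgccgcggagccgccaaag

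Across the lists, 79963 pairs were kept, 57873 were gained and 58806 were lost. The kept pairs were 57.6% of the 0h pairs (Wilson 95% interval 57.4 to 57.9) and 58% of the 1h pairs. Intervals here cover counting error only, and pairs of 1 bait are not independent. The 2 lists thus differed little in size while 29.4% of their union was gained and 29.9% was lost. For the same time points, the study tested differential interactions with Chicdiff and reported far fewer at 1h than these counts. Presence in 1 list alone is not such a test of change. The lists carry no read depth, so a pair that is missing from a list may have lain just below the score of 5 that the authors required, and the share of lost and gained pairs that stems from depth was not tested.

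The 0h list gives the CHiCAGO score of each pair, a measure of how far its reads exceed the background expected at that distance, and the kept share rose with it. Of pairs with a score of 5 to 6, just inside the threshold, 35.7% were kept. Of pairs with a score of 10 to 15, 86.8% were kept, and of the 1109 with a score of 30 or more, 1088 were. The median 0h score was 7.9 for kept and 6 for lost pairs. The 1h list holds whole numbers in place of the score, so gained pairs could not be graded in the same way.

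Distance moved with the kept share as well. Of 0h pairs under 50 kb, 66% were kept, against 53.6% at 200 to 500 kb and 31.4% at 1 Mb and more. The median distance between fragments was 169 kb for kept, 210 kb for gained and 225 kb for lost pairs. Lost pairs lay beyond 500 kb in 13.8% of cases, gained pairs in 10.8% and kept pairs in 6.25%. Within a score of 5 to 6 the kept share fell from 44.5% under 50 kb to 19.5% at 500 kb and more, and within a score of 12 or more from 97% to 81.9%, so distance moved with it at low and at high scores.

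**Figure D1:**
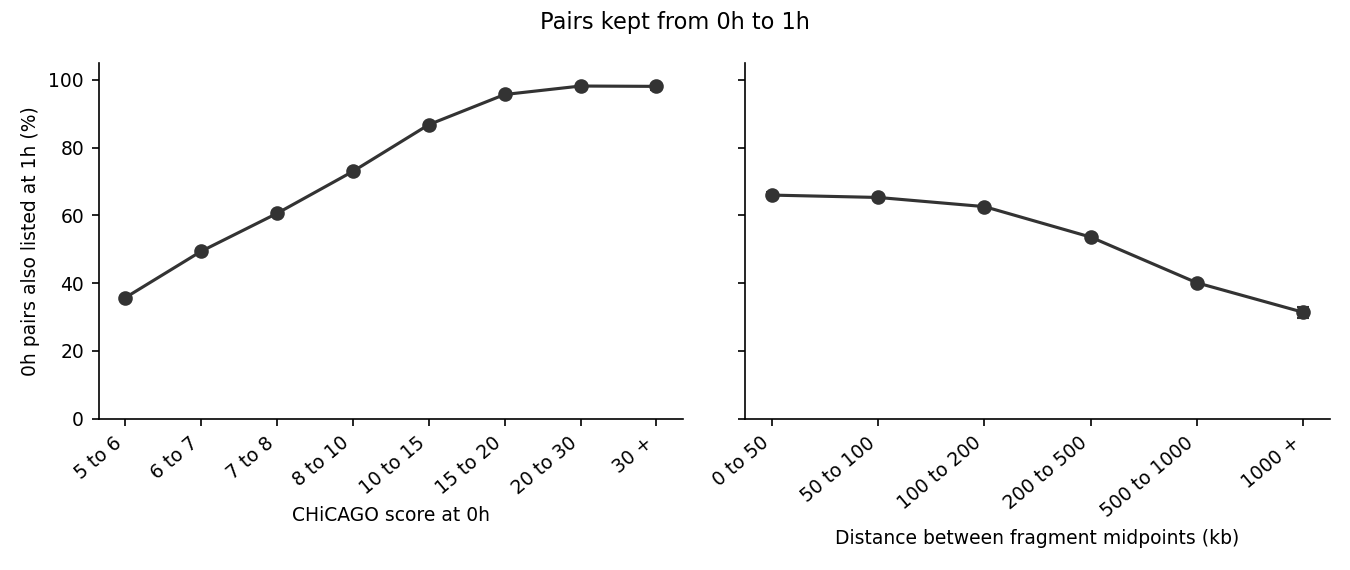
The share of 0h pairs that were also in the 1h list (%) is plotted against the CHiCAGO score of the pair at 0h (left) and against the distance between its fragments in kb (right). Points are shares and bars are Wilson 95% intervals, which cover counting error only. The share rose from 35.7% at scores of 5 to 6 to over 95% from a score of 15 on, and fell from 66% under 50 kb to 31.4% at 1 Mb and more.

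Contacts between promoters were kept more often than contacts of a promoter with another fragment. Of the 22809 pairs at 0h in which both ends were baits, 66.7% were kept (66.1 to 67.3), against 55.8% of the 115960 pairs with 1 bait (55.6 to 56.1). The intervals did not overlap, but they cover counting error only. A pair of baits can be listed from either end, and a pair with 1 bait from that bait alone. The kinds were also not matched for score or distance, and the part of these differences was not tested. Bait pairs made up 19% of kept, 15% of gained and 12.9% of lost pairs.

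Most changed pairs had a neighbour. For 62.8% of gained pairs, the same bait had a 0h pair whose other end lay within 10 kb, and for 66.1% of lost pairs it had such a 1h pair. In 35% of gained and 38.8% of lost pairs the neighbouring other end was the next fragment. Only 17% of gained and 15.9% of lost pairs had no neighbour of the same bait within 50 kb. Counted with a tolerance of 10 kb, 85.6% of the 0h pairs were kept, 21555 pairs were gained and 19935 were lost.

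The later lists were used to follow the pairs. Of the kept pairs, 73.8% were listed at 12h and 71.4% at 48h. Of the gained pairs, 33.1% were listed at 12h and 27.6% at 48h, and 55.7% at neither time. Of the lost pairs, 25.2% were listed again at 12h and 34.8% at 48h, and 55.6% at neither. Gained pairs were thus more often listed at 12h than at 48h, and lost pairs more often at 48h than at 12h. The 12h list held 131598 pairs and the 48h list 144072, and the part of list size was not tested. With a tolerance of 10 kb, lost pairs were at 66.8% at 12h and 68% at 48h, and gained pairs at 69.8% and 63%.

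**Figure D2:**
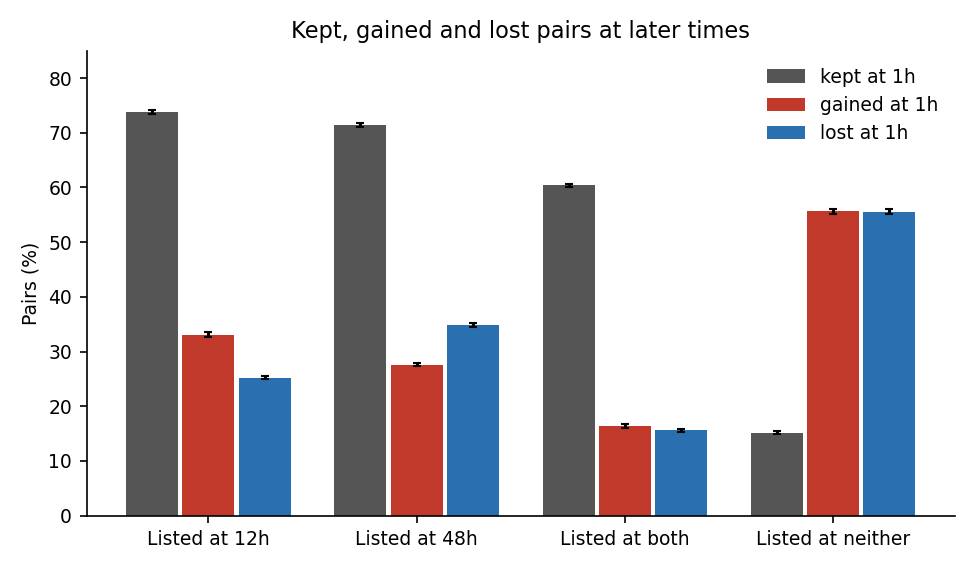
Percent of kept, gained and lost pairs (grey, red and blue bars) that were listed at 12h, at 48h, at both or at neither, with Wilson 95% intervals as lines. Kept pairs were listed at 12h in 73.8% of cases, gained pairs in 33.1% and lost pairs in 25.2%, and 55.7% of gained and 55.6% of lost pairs were at neither time.

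Fragments of the changed pairs differed little in composition. GC content of other ends was 45% for kept, 45.7% for gained and 43.8% for lost pairs, and the median length was 2680, 2587 and 2623 bases. A transcription start site lay on 15.1% of kept, 15.3% of gained and 14% of lost other ends. All 98231 fragments in either list began at a HindIII site of the reference and none held another site inside.

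The full C/EBP letters were rare. They were in 0.458% of fragments seen in gained pairs only (0.369 to 0.568), in 0.235% of the 20399 seen in lost pairs only (0.178 to 0.312, 48 fragments), and in 0.336% of all 81461 other ends (0.299 to 0.379). In fragments of at least 1 kept pair the share was 0.342% (0.289 to 0.405), and its interval overlaps that of the gained-only fragments. GC content of the gained-only, the lost-only and all other ends was 44.9%, 43% and 44.3%, so it moved in the same order, and its part in the difference was not tested. Counted once per pair, the letters were in 0.362% of gained, 0.358% of kept and 0.301% of lost other ends, whose intervals overlap. The looser letters TTGCNNAA (which include the full ones) occurred 0.423 times per kb in gained-only and 0.455 times per kb in lost-only fragments. CCACNAGG, the core letters of a CTCF site, occurred 0.149 times per kb in gained-only, 0.128 in lost-only and 0.143 in all other ends. A match is a description of letters and does not show that a factor bound there.

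Per promoter, the 196642 pairs fell on 16770 baits. Of these baits, 13932 had pairs at both times, 1225 at 0h only and 1613 at 1h only. The median was 6 pairs per bait at each time. More pairs were listed at 1h for 7566 baits, fewer for 7088 and the same number for 2116, of which 1673 had exchanged at least 1 pair. A bait was called gaining when it had at least 5 more pairs at 1h and at least 1.5 times its 0h number, and losing in the reverse case. This gave 1410 gaining and 1444 losing baits.

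The classes were used to follow the number of pairs over time. Gaining baits had a median of 7, 15, 12 and 9 pairs in the lists of 0h, 1h, 12h and 48h. Losing baits had 15, 7, 9 and 12. Baits outside both classes had 4 at each time. The 0h and 1h values follow from the rule, and the later ones were not used by it. Baits picked for a large difference between the 0h and 1h lists can still drift back later through that choice alone. How much of the later values stems from it was not tested. Since a bait can lose at least 5 pairs only where it had them, the classes also differed at 0h by construction. Among 7425 baits with at least 10 pairs in the union, 79 kept none and 0 kept all.

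The 5 baits with the largest net gain were led by chr12:21285222-21291864, which carries starts of Itgb1bp1 (an integrin-binding protein) and Cpsf3 (the nuclease of mRNA 3′ end cleavage). It had 27, 122, 48 and 6 pairs in the lists of 0h, 1h, 12h and 48h. A neighbouring bait at chr12:21313557-21318145, with starts of Cpsf3 and Iah1, listed 16, 62, 16 and 1. The first was still above its 0h number at 12h and the second was back at it, and both were below it at 48h. The bait of Ikzf1 listed 51, 97, 69 and 76, that of the noncoding gene Gm24837 46, 89, 65 and 15, and that of Ceacam9 and Gm5586 37, 79, 35 and 17. The largest net losses were at the baits of 5930403N24Rik (71, 17, 29 and 97), Gm25282 (86, 41, 40 and 69), Ralgapa2 (55, 11, 11 and 13), Dmxl1 (97, 54, 52 and 95) and Ube2b (97, 55, 44 and 49).

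Of these 5 losses, 5930403N24Rik and Dmxl1 were near or above their 0h number again at 48h, and Ralgapa2 was not. The baits with the largest gains and losses were also picked on the 0h and 1h lists, so the same limit holds for their later numbers. Of the genes tested on these 10 baits, Ikzf1 was called lower and no other was called. Cpsf3 had 9.95, 10.1 and 8.17 TPM at 0h and 6.68, 4.88 and 6.06 TPM at 1h. Its groups did not overlap, and its log2 fold change of -0.67 had an adjusted p of 0.0588 (limma, Benjamini-Hochberg). Itgb1bp1, Iah1, Ralgapa2, Dmxl1 and Ube2b were not called either, with log2 fold changes between -0.50 and 0.32.

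**Figure D3:**
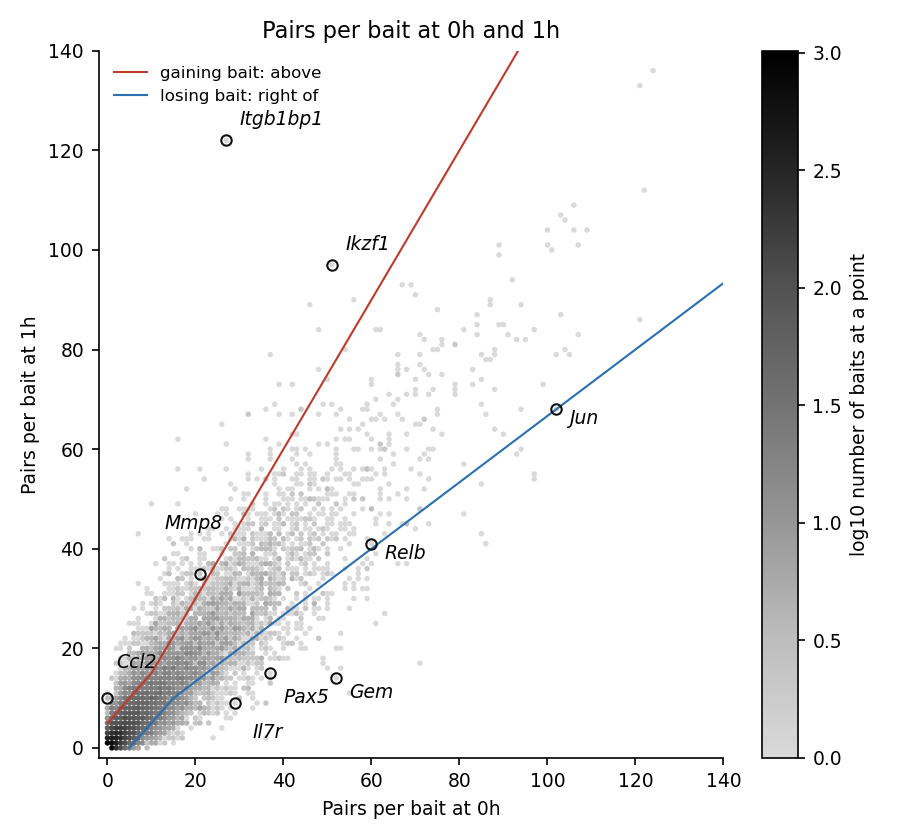
Each point is a pair of values, the number of listed pairs of a bait at 0h (x axis) and at 1h (y axis), with darker grey for more baits at the same point (log10 scale). Baits on or above the red line were called gaining and those on or right of the blue line losing. The bait of Itgb1bp1 lies at 27 and 122, that of Ikzf1 at 51 and 97, that of Jun at 102 and 68 and that of Pax5 at 37 and 15.

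Gains and losses were not spread evenly over chromosomes. Among autosomes, the share of 0h pairs that was kept ran from 49.9% on chromosome 13 to 62.2% on chromosome 7. The number of pairs at 1h relative to 0h was 0.833 on chromosome 18 and 0.868 on chromosome 13, and 1.09 on chromosome 7. The baits on chromosome 12 named above and that of Ceacam9 on chromosome 7 gained, and those of Dmxl1 on chromosome 18 and Gm25282 on chromosome 7 lost, so single baits went both ways.

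RNA was set beside the contacts. A gene was called when its level differed with an adjusted p under 0.05 (limma, Benjamini-Hochberg over 16415 genes) and a log2 fold change beyond 1 on the log2(TPM + 0.1) scale, which understates changes of low genes. TPM were divided by median-of-ratios size factors, since those of the 1h libraries (1.2921 to 1.5179) all exceeded those of the 0h libraries (0.8181 to 1.0044). The median log2 fold change over the genes tested was 0.591 for TPM as deposited, against 0.021 after scaling, and without scaling 2746 genes were called higher and 178 lower in place of 672 and 463. That is 93.9% against 59.2% of calls in the higher direction, and all changes below are relative to the scaled values. Less RNA of a gene per cell and fewer cells that express it cannot be told apart in bulk samples.

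After scaling, 4.09% of the 16415 genes were called higher and 2.82% lower. Of the 11468 tested genes with a start site on a listed bait, 3.22% were called higher and 3.53% lower. Genes on gaining baits were called higher in 4.08% of cases (45 of 1102) and lower in 2.81% (31). Genes on losing baits were called higher in 1.53% (20 of 1311) and lower in 5.95% (78). Genes on other baits were at 3.35% and 3.27%, near the background. The median log2 fold change was -0.014 for gaining, -0.148 for losing and -0.064 for other baits, against -0.070 for all genes with a bait. The SD of these medians over the 1h replicates was 0.018, 0.028 and 0.021. With a tolerance of 10 kb, genes on losing baits were called higher in 3.03% of cases (9 of 297) and lower in 4.71% (14), and those on gaining baits in 3.96% and 2.48% of 404, so the low share called higher on losing baits was not seen there. No test was made over these lists, whose members share baits and libraries.

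By the number of pairs a gene gained or lost, the share called lower ran from 11.3% of 124 genes that had lost 20 or more to 3.54% of 113 that had gained 20 or more. The share called higher ran from 1.61% to 5.31%. Between them, bins of small net change lay at 2.34% to 3.85% called higher. Across genes, the net number of pairs and the log2 fold change had a Pearson correlation of 0.072 and a Spearman correlation of 0.066 (n = 11468 genes, which share baits and libraries). Among the 7606 genes with at least 1 TPM at 0h, the Spearman correlation was 0.042.

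**Figure D4:**
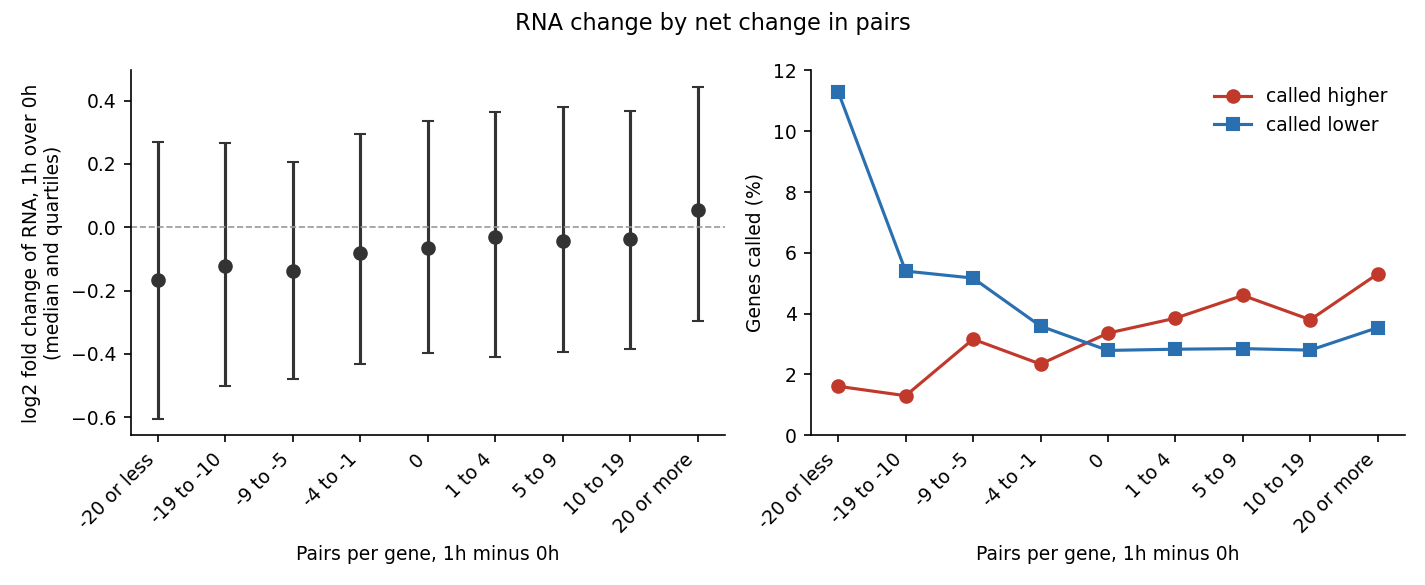
Genes are grouped by the number of pairs at 1h minus 0h. The left panel shows the median log2 fold change of RNA (1h over 0h) with quartiles as bars, and the right panel the percent of genes called higher (red) and lower (blue). The share called lower was 11.3% in the group with a net loss of 20 or more and 3.54% in the group with a net gain of 20 or more.

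Read from the side of RNA, the 369 genes called higher with a bait had 5227 pairs at 0h and 5613 at 1h, a ratio of 1.07. Of these genes 199 had more pairs, 129 fewer and 41 the same number. The 405 genes called lower had 7098 and 6318 pairs, a ratio of 0.89, with more pairs for 140, fewer for 231 and the same for 34. Genes that were not called had a ratio of 0.987. At 48h the higher genes had 6199 pairs, more than at 1h, and the lower genes 5847. All tested genes with a bait had 150694 pairs at 1h and 142624 at 48h, so fewer pairs at 48h were not particular to the lower genes. When genes with at least 1 TPM at 0h were taken alone, the ratios were 1.03, 0.893 and 0.976.

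Most Pre-B genes fell in RNA, and their summed pairs were fewer at 1h. Of 24 genes on the list, 23 had a bait and 23 were tested, 17 of these were called lower (against 3.53% of all genes with a bait) and 0 higher, at a median log2 fold change of -1.42 (against -0.070 for all genes with a bait). At an unadjusted limma p under 0.05, 0 of them were higher. Pairs summed over genes fell from 518 to 469 (genes that share a bait count it each). That is a ratio of 0.905, against 0.985 for all tested genes with a bait. Fewer pairs were listed for 12 genes, more for 8 and the same number for 3. Of all tested genes with a bait, 46.5% had fewer and 42.9% more. The kept share of 0h pairs was 60.2%, near the 60.5% of those genes. Pax5, Il7r, Rag2, Blnk, Ebf1 and Pou2af1 were on losing baits, and Ikzf1 alone of the list was on a gaining bait. Of all tested genes with a bait, 11.4% were on a losing and 9.61% on a gaining bait. Without scaling, Pax5, Ikzf1, Pou2af1, Blnk, Bach2, Tcf3, Igll1, Vpreb1 and Vpreb3 were no longer called. Bach2 also lost its call when any 1 of the 6 libraries was left out, and Vpreb3 without 0h replicate 3 or 1h replicate 2.

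Pax5 had 37, 15, 14 and 27 pairs at the successive times from its bait at chr4:44708778-44717025. All 24 lost pairs lay above the bait, up to 694 kb away, and 14 of them were listed at 48h. The 2 gained pairs were in the same direction. RNA stood at 16.9, 19.5 and 20.6 TPM at 0h and at 6.91, 6.73 and 6.82 TPM at 1h. All 1h values were below all 0h values, and the log2 fold change was -1.46 (SE 0.14, limma adjusted p = 9.31e-05).

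Il7r had 29, 9, 6 and 13 pairs, with 22 lost, 20 of them above the bait at chr15:9528618-9533170 and up to 952 kb away. Its RNA was 8.09, 8.16 and 8.56 TPM at 0h and 0.876, 0.98 and 0.286 TPM at 1h, without overlap. The log2 fold change was -3.50 (SE 0.35, limma adjusted p = 0.000106). Rag2, a subunit of the V(D)J recombinase, went from 7 to 2 pairs and from 3.22, 1.83 and 1.52 TPM to 0.125, 0 and 0.0851 TPM, with a log2 fold change of -3.76 (limma adjusted p = 0.000296). Rag1, the catalytic subunit, had 4 pairs at both times, 2 of them the same, while its RNA fell from between 1.83 and 1.87 TPM to between 0.031 and 0.0461 TPM.

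Ikzf1 went the other way in contacts. Its bait at chr11:11681896-11685640 gained 50 pairs and lost 4, and 37 of the gained pairs lay above the bait, into and beyond the gene, while 46 of its 47 kept pairs lay below it. Of the gained pairs, 16 were listed at 12h and 23 at 48h. RNA of Ikzf1 was 33.8, 29.6 and 33.1 TPM at 0h and 12.1, 10.7 and 11.3 TPM at 1h. No 1h value reached the 0h range, with a log2 fold change of -1.49 (SE 0.12, limma adjusted p = 2.83e-05), so this gene had more listed contacts and less RNA.

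Pou2af1, a B-cell coactivator of Oct factors, went from 22 to 12 pairs (log2 fold change of RNA -1.39), and Blnk, an adaptor below the pre-B-cell receptor, from 19 to 9 (-1.23). Ebf1, the factor upstream of Pax5, went from 18 to 10 and its RNA from between 16.0 and 18.4 TPM to between 9.02 and 10.8 TPM. It was not called, at -0.84 and a limma adjusted p of 0.00769, since its fold change missed 1. Foxo1, which drives Rag transcription, changed from 50 to 46 pairs beside a log2 fold change of -2.61, and Cd79b, a signalling chain of the B-cell receptor, from 8 to 9 beside -3.40. Lef1, a Wnt pathway factor of early B cells, went from 73 to 58 (-2.19).

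Summed over genes, the macrophage list had more pairs at 1h. Of 30 genes, 22 had a bait, with 203 pairs at 0h and 248 at 1h. More pairs were listed for 14, fewer for 7 and the same number for 1. Of all tested genes with a bait, 42.9% had more and 46.5% fewer. Of 26 tested, 9 were called higher and 2 lower (against 4.09% and 2.82% of all genes tested), at a median log2 fold change of 0.547 (0.021 for all genes tested). The 9 were Mmp8, Ctsc, Spi1, Cd14, Csf2rb, Il1rn, Tlr2, Zeb2 and Cebpd, of which Csf2rb and Cebpd had no listed bait. The 2 called lower were Irf8 and Cd68, which both function in myeloid cells. Calls of Mmp8, Cebpd and Il1rn were lost with a pseudocount of 1, that of Cebpd also without 1h replicate 1, and that of Cd68 without scaling, with a pseudocount of 1, and without 0h replicate 1, 0h replicate 2, 1h replicate 2 or 1h replicate 3. Of the 6 on gaining baits (Cebpb, Csf1r, Mmp8, Mmp12, Ccl6 and Ccl7), Mmp8 alone was called. On losing baits were 2 of the list, among them Itgam, which encodes CD11b. Itgam had 15, 7, 11 and 25 pairs at the successive times and was not called. Of all tested genes with a bait, 9.61% were on gaining and 11.4% on losing baits.

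Mmp8 had 21, 35, 57 and 63 pairs at the successive times, and 17 of its 20 gained pairs were listed at 12h. It was listed at 0 TPM in all 3 libraries of 0h and at 0.204, 0.181 and 0.217 TPM at 1h. Mmp12, a macrophage elastase, had 14, 21, 72 and 63 pairs, and all 14 gained pairs were listed at 12h. It was at or under 0.101 TPM in all 6 libraries and was not called (limma adjusted p = 0.0551). Both baits lie in the matrix metalloproteinase cluster on chromosome 9, and both listed more pairs at 12h and at 48h than at 1h.

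Csf1r, the receptor of macrophage colony-stimulating factor, had 10, 18, 17 and 9 pairs while its RNA lay between 0.139 and 0.48 TPM at 0h and between 0.161 and 0.689 TPM at 1h. These ranges overlapped (limma adjusted p = 0.905). Cebpb, a C/EBP family member that follows C/EBPα, had 18, 27, 17 and 8 pairs, with 2.93, 3.03 and 2.99 TPM at 0h and 5.09, 4.32 and 5.73 TPM at 1h. All 1h values exceeded all 0h values, but the log2 fold change of 0.73 was not called (limma adjusted p = 0.114), except without scaling. Ccl7, a chemokine beside Ccl2, had 1, 8, 9 and 16 pairs and was listed at 0 TPM in all 6 libraries.

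Other macrophage genes rose in RNA with few contacts. Zeb2, a zinc finger repressor, had 4 pairs at 0h and 8 at 1h, with 10.6, 9.27 and 7.59 TPM at 0h and 40.8, 40.5 and 42.6 TPM at 1h. It was higher in every 1h library, with a log2 fold change of 2.17 (limma adjusted p = 5.28e-06). Tlr2, a receptor for bacterial lipoproteins, had 2, 3, 15 and 15 pairs and a log2 fold change of 2.54. Il1rn, the interleukin-1 receptor antagonist, had 3, 7, 13 and 16 and 2.02. Cd14, the co-receptor for lipopolysaccharide, had 5 pairs at both times and was listed at 0 at 0h and at 1.47, 1.09 and 1.40 TPM at 1h. Spi1, the myeloid and B-lineage factor PU.1, had 7 and 6 pairs, with 5 kept, and a log2 fold change of RNA of 1.202.

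Ccl2 and Ccl3, chemokine genes on chromosome 11, were examined after values were seen. Both were called higher and had a gained end with the full letters. Ccl2 had 0, 10, 11 and 13 pairs at the successive times from its bait at chr11:82035050-82036783. The fragment with the letters shown above starts at 82171831 and ends at 82174351, 137 kb from the bait, was listed at 12h and 48h, and was also a gained end of Ccl7. Ccl2 was at 0, 0 and 0.0856 TPM at 0h and at 0.613, 0.584 and 0.689 TPM at 1h. All 1h values were higher, with a log2 fold change of 2.57 (SE 0.23, limma adjusted p = 5.99e-05), a call lost with a pseudocount of 1.

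Ccl3 had 19, 30, 27 and 54 pairs, and the fragment with the letters, from 83716421 to 83718928, lies 67 kb from its bait and was listed at 12h and 48h. That fragment was also a gained end of Ccl4, which was not called (log2 fold change 0.00). RNA of Ccl3 was 2.51, 0.781 and 1.92 TPM at 0h and 10.4, 11.7 and 10.4 TPM at 1h. The groups did not overlap, with a log2 fold change of 2.71 (SE 0.34, limma adjusted p = 0.000483). Socs3 had 1, 1, 7 and 7 pairs at the successive times, and at 1h the 0h pair was exchanged for the fragment from 117915739 to 117921443, 46.8 kb away and listed at 12h and 48h. The same fragment was also a gained end of Pgs1, which was not called (log2 fold change 0.83). RNA of Socs3 went from 0.119, 0.0558 and 0.0489 TPM to 1.11, 2.66 and 1.91 TPM, with a log2 fold change of 3.46 (SE 0.33, limma adjusted p = 7.22e-05).

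The full set behind these examples held 80 tested genes whose bait contacted a gained-only fragment with the full letters. Of these 6 were called higher (7.5%) and 3 lower (3.75%), against 3.99% and 3.61% of the 6062 genes of all gained-only fragments. The 6 were Ccl2, Ccl3, Socs3, Alcam, Dstn and Hpgd, and the 3 were Cd180, Lifr and Depp1. Of the 47 genes of lost-only fragments with the letters, 0 were called higher and 5 lower (10.6%). The numbers are small, the letters were picked with results of these data known, and no test was made. Depp1, Hpgd, Ccl2 and Lifr lost their calls with a pseudocount of 1, and Hpgd also when any library but 0h replicate 3 was left out. Lifr also lost its call without scaling, and without 0h replicate 2, 0h replicate 3, 1h replicate 1 or 1h replicate 2.

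**Figure D5:**
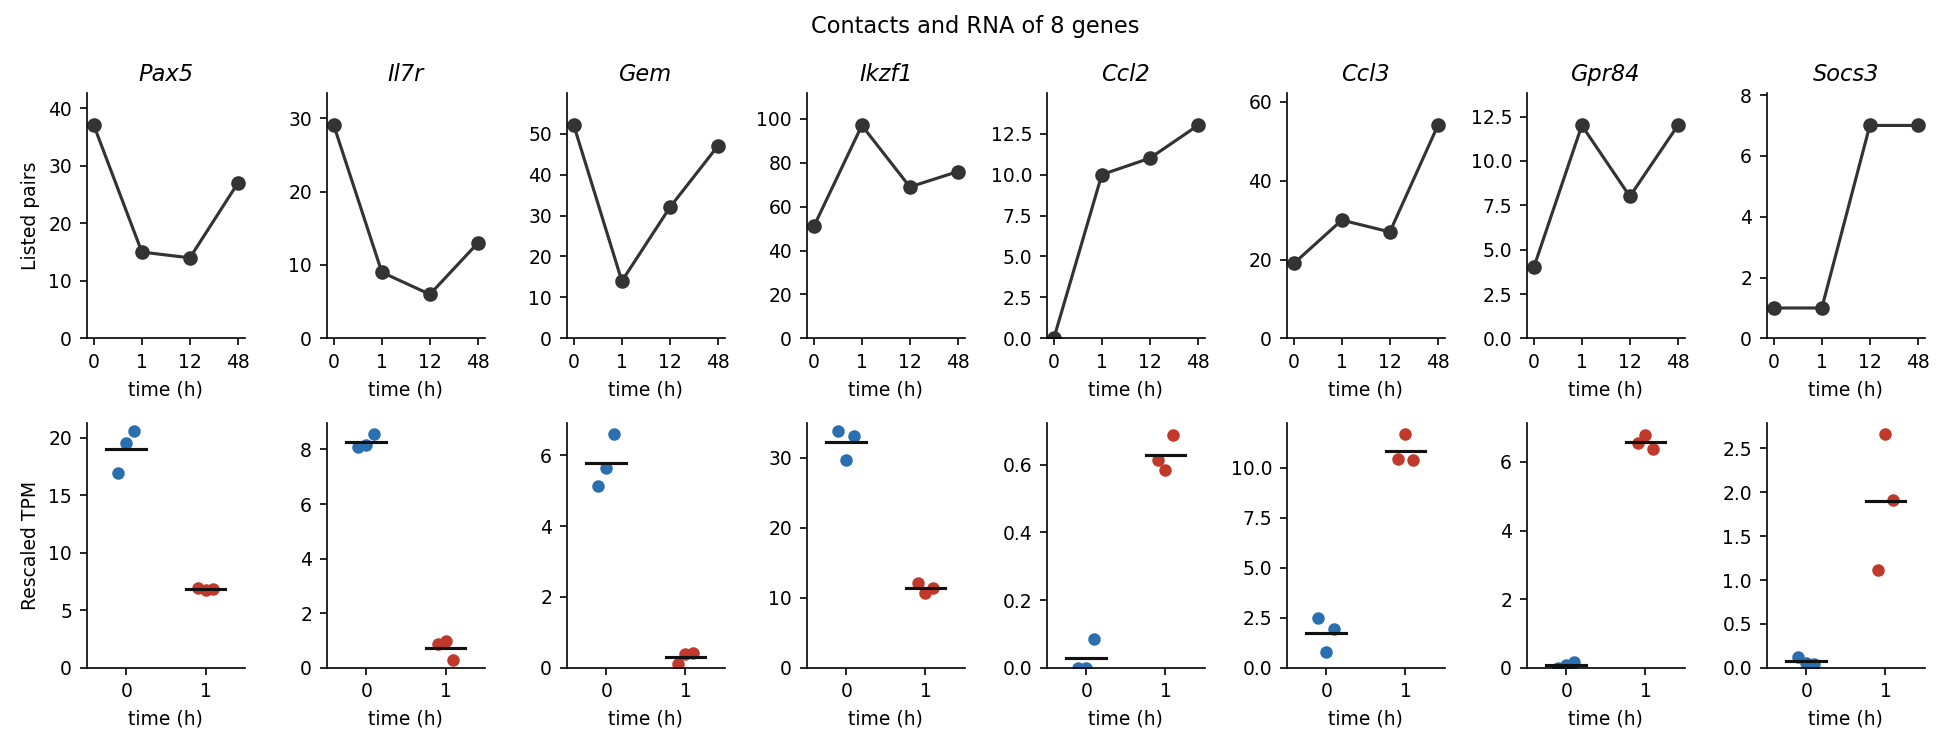
For 8 genes, the upper panels show the number of listed pairs at 0, 1, 12 and 48h (time points evenly spaced), and the lower panels the rescaled TPM of each of 3 replicates at 0h (blue) and 1h (red), with the mean as a line. Pax5 fell from 37 to 15 pairs and Il7r from 29 to 9, while Ikzf1 rose from 51 to 97, and RNA of all 3 was lower at 1h in every replicate.

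Immediate early and growth arrest genes were next. All 20 had a bait, with 415 pairs at 0h and 358 at 1h, fewer for 13, more for 6 and the same for 1. Of all tested genes with a bait, 46.5% had fewer and 42.9% more. Of 20 tested, 4 were called higher (Fosl2, Ier3, Nr4a1 and Klf2) and 7 lower (Fos, Fosb, Jund, Egr2, Myc, Dusp2 and Btg2), against 3.22% and 3.53% of tested genes with a bait. Fosl2, an AP-1 subunit, kept 46 of 55 pairs and had 55 at both times while its RNA went from between 0 and 0.0244 TPM to between 0.593 and 1.202 TPM. Jun, another AP-1 subunit, went from 102 to 68 pairs, all 53 lost ones above the bait and 206 to 885 kb away, and to 47 at 12h and 50 at 48h. Its RNA was 4.49, 5.51 and 5.66 TPM at 0h and 4.27, 4.92 and 4.69 TPM at 1h, with overlap (log2 fold change -0.17, limma adjusted p = 0.487). Btg1, an antiproliferative factor, had 15, 13, 21 and 59 pairs and a log2 fold change of 0.12 (limma adjusted p = 0.823). Dusp2, a nuclear phosphatase of MAP kinases, went from 12 to 6 pairs and fell in RNA (log2 fold change -3.08, limma adjusted p = 0.00017). Without scaling Jund, Egr2, Myc and Btg2 were no longer called, and with a pseudocount of 1 Fosl2, Egr2 and Btg2 were not. Egr2 was not called without 0h replicate 1, 1h replicate 2 or 1h replicate 3, and Btg2 not without 0h replicate 2, 0h replicate 3, 1h replicate 1 or 1h replicate 2.

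The NF-kB list held 12 genes, 11 with a bait, whose pairs went from 256 to 227, a ratio of 0.887 against 0.985 for all tested genes with a bait. Of 11 tested, 3 were called higher (Nfkbiz, Ptgs2 and Il1b) and 1 lower (Icam1), against 4.09% and 2.82% of all genes tested. Ptgs2 exchanged all of its pairs, from 4 at 0h to 6 others at 1h, 16 at 12h and 31 at 48h, and went from 0, 0.0335 and 0.0244 TPM to 0.955, 1.28 and 0.882 TPM, with a log2 fold change of 3.25 (limma adjusted p = 5.54e-05). Relb, an NF-kB subunit, went from 60 to 41 pairs without a call. With a pseudocount of 1, Ptgs2, Nfkbiz, Il1b and Icam1 were not called, and Nfkbiz also not when any 1 of the 6 libraries was left out. Icam1 was not called without scaling or without 1h replicate 2.

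The CTCF, cohesin and Polycomb list had the lowest kept share among the lists fixed by function, 46.1% of 141 pairs at 0h. Over all tested genes with a bait it was 60.5%. Of 14 tested genes 0 were called in limma (1, Ezh2, at an unadjusted p under 0.05), with a median log2 fold change of 0.153, and Ezh2, the Polycomb methyltransferase, had a limma adjusted p of 0.0481 with a fold change short of the threshold. Ctcf, the boundary factor, exchanged all of its pairs, from 4 to 12, and had 4 at 12h and 3 at 48h. Suz12, a core Polycomb subunit, kept 1 of 13 pairs, had 4 at 1h and 1 and 0 later, and its RNA lay at 10.4, 10.2 and 11.8 TPM at 0h and 11.1, 11.3 and 9.31 TPM at 1h. The ranges overlapped (limma adjusted p = 0.959). Eed, another core subunit, went from 31 to 18 pairs.

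Among 6 genes taken from the study's text on contact changes, which were chosen on these samples and are not all that it names, Pax5, Suz12 and Ccl7 are described above. Clcf1, a cytokine of the interleukin-6 family, went from 47 to 40 pairs and then to 22 and 17. It fell from 3.43, 1.56 and 2.85 TPM to 0.547, 0.859 and 0.743 TPM, with a log2 fold change of -1.68 (limma adjusted p = 0.0202). That call was lost without scaling and without 0h replicate 1, 0h replicate 3, 1h replicate 1 or 1h replicate 3. Ccl12 had no pair at 0h or 1h.

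The genes with the largest RNA changes had gained, lost or nearly unchanged numbers of pairs. Gpr84, a receptor for medium-chain fatty acids, had 4 pairs at 0h and 12 at 1h, with 8 gained and all 4 kept. Its RNA was 0, 0.0781 and 0.183 TPM at 0h and 6.55, 6.79 and 6.36 TPM at 1h. All 1h values were far above the 0h range, with a log2 fold change of 5.28 (SE 0.30, limma adjusted p = 2.66e-06). The other 4 genes with the largest increase, Gm22398, Gm25195, Gm23451 and Gm25668, were listed at 0 TPM in all 3 libraries of 0h and at between 1.24 and 22.1 TPM at 1h, and their pairs went from 10 to 18, 13 to 9, 19 to 25 and 0 to 2. Gm22398 was not called without 0h replicate 2, 0h replicate 3, 1h replicate 1 or 1h replicate 2, and Gm23451 not without 1h replicate 2.

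Gem, a small GTPase of the Rad and Kir family, was among the 5 genes with the largest decrease and had 52, 14, 32 and 47 pairs at the successive times, and 37 of the 41 lost pairs lay above its bait at chr4:11697593-11708444. RNA was 5.13, 5.63 and 6.59 TPM at 0h and 0.0988, 0.396 and 0.41 TPM at 1h, with no overlap and a log2 fold change of -3.99 (SE 0.42, limma adjusted p = 0.000156). Cbfa2t3, an ETO family corepressor, went from 9 to 3 pairs with a log2 fold change of -4.10. Pdgfb, a growth factor, fell by 5.11 on the log2 scale with 0 pairs at 0h and 1 at 1h, and Fosb changed by -4.01 with 18 and 17 pairs.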

How the data were processed

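Promoter Capture Hi-C of 4 time points and RNA-seq of 12 libraries of C10 cells were analysed. The authors merged 2 replicates per time point and called interactions with CHiCAGO at a score of at least 5 on mm10 (HindIII fragments). The deposited 0h list holds the score in its column 5, and the deposited lists of the other times hold whole numbers there, taken as counts of read pairs, so only presence was compared. For RNA-seq the submitters' processing notes name Trim Galore 0.6.2, HISAT2 2.1.0, FastQC and RSEM, and the authors deposited TPM per gene. TPM keep no depth, and the lists hold no totals.

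Pairs were reduced to unordered fragment pairs. Genes were joined to baits by any GENCODE release M21 start site on the bait fragment. Genes with both a gaining and a losing bait (10) were left out of the classes. TPM were divided by median-of-ratios size factors, 0.1 was added, and log2 values of 16415 genes with a mean of at least 0.1 TPM were fitted with limma 3.58.1 in R 4.3.3 over 12 libraries, with a mean-variance trend and Benjamini-Hochberg adjustment. The fit was tested on simulated data of 16415 genes for this contrast: it called 86.5% of 200 genes changed 4-fold and 19 unchanged genes. The changed genes were drawn from those of higher level and the spread was capped, so recovery among genes of low TPM was not tested. Motif letters were searched in RefSeq GRCm38.p6 fragments on both strands, and 8268 of 11447 gene symbols matched a promoter entry. The remaining work was done in Python 3.11.15, numpy 2.4.6, scipy 1.17.1, pandas 2.3.3 and matplotlib 3.10.9.

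The genes named are those of the 6 lists and of the study's text, the 5 baits with the largest net gain and loss, and the 5 called genes with the largest increase and decrease (mean of at least 1 TPM, no overlap). The genes with full C/EBP letters were added after values were seen. The members and lists were chosen with earlier results of these data known. Replicate numbers were not taken as a pairing of the samples. Nothing says that the replicates came from separate cultures beyond the label of biological replicates, so p-values measure the spread between these samples. The values of 1 marker gene are not reported here. The Hi-C and the ChIP-seq libraries were left aside.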

Additional observations from a re-analysis of the deposited data

How the results depend on the processing

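The share of 0h pairs kept was 85.6% with a tolerance of 10 kb, 90% for 0h scores of at least 10 and 58.1% for baits in both lists. Gained pairs fell to 21555 and lost pairs to 19935 with 10 kb. Of the 57873 gained pairs, 69.8% had a pair of the same bait within 10 kb in the 12h list and 63% in the 48h list, and of the 58806 lost pairs 66.8% and 68% did. Gaining baits numbered 555 and losing baits 368 with 10 kb, and 524 and 518 with a net of at least 10. Called genes (672 higher, 463 lower) were 2746 and 178 without scaling, 207 and 239 with a pseudocount of 1, 185 and 104 beyond a log2 fold change of 2, 404 and 379 at a mean TPM of at least 1, 888 and 807 without a fold threshold, and 522 and 504 with quantile normalization. Leaving out 1 replicate gave 433 to 571 higher and 336 to 414 lower, the lowest of both without 1h replicate 2.

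The median log2 fold change of gaining, losing and other baits was 0.558, 0.453 and 0.523 without scaling, which moves nearly all genes by a like amount. It was -0.067 for gaining and -0.110 for other baits at a mean TPM of at least 1, 0.004 for gaining and -0.099 for losing baits with 10 kb, and -0.084 for losing and -0.038 for other baits with a pseudocount of 1. The causes were not tested. With replicate number as a block, 711 genes were called higher and 465 lower. Same-numbered samples deviated together with r of 0.074, 0.021 and 0.255. Differently numbered samples had r between -0.156 and 0.088, negative wherever replicate 3 was set against replicate 1 or 2. The numbers were not taken as a pairing, so the main fit does not model what samples of 1 number may share. Of 56 named genes that were called and above 0 in some 0h library, 31 kept their call under every alternative run, and none changed sign. Of 8 more that were called and at 0 in all 0h libraries, 3 (Cd14, Gm25195 and Gm25668) kept it. With quantile normalization, Bach2, Cebpd, Hpgd, Igll1, Myc, Nfkbiz and Vpreb3 lost their calls. With only the 6 libraries of 0h and 1h in the fit, Btg2, Cd68, Cebpd, Hpgd, Icam1, Lifr, Vpreb3 and Smad6 lost theirs. The depth of the contact lists is unknown, and its part in lost and gained pairs was not tested.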
